A study of Mus musculus with 8 samples.

Results

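The FAK and STAT3 signalling genes are the kinase axis that the study places below integrin α6, with its adaptors and feedback genes. They were taken by gene symbol and are 10 of the 18533 symbols in the count files: *Ptk2*, *Ptk2b*, *Src*, *Pxn*, *Bcar1*, *Il6st*, *Jak1*, *Jak2*, *Stat3*, and *Socs3*. RNA was sequenced from mouse aortic smooth muscle cells (MASMCs), primary cells grown from the aorta, of wild-type (WT) mice (n = 4) and Hint1-/- mice (n = 4), a line in which *Hint1* was disrupted throughout the animal. All 8 samples received PDGF-BB, a growth factor that moves smooth muscle cells toward a synthetic state, at 20 ng/mL for 24 hours. No untreated sample was analysed here, so values compare genotypes under PDGF-BB and not a response to it. The study's methods give male mice aged 4 to 6 weeks and compare littermates, take the aorta as thoracic in one place and as whole in another, and state that adventitia and endothelium were removed. They do not say whether the samples of a genotype came from separate mice or cultures, so each p-value measures the spread between these samples, which may be technical.

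Integrins that bind the matrix cluster into focal adhesions, where focal adhesion kinase (FAK, the product of *Ptk2*) phosphorylates itself and recruits SRC. Both kinases then phosphorylate the adaptors paxillin and p130Cas, which link adhesion to the actin cytoskeleton and to cell movement. STAT3 is a latent transcription factor that tyrosine kinases switch on by phosphorylation, most often the JAK kinases bound to the cytokine receptor chain gp130, and its target SOCS3 feeds back to shut off gp130 and JAK. In vascular smooth muscle, FAK and STAT3 are known for proliferation, migration, and the loss of contractile genes. Their activity lies in phosphorylation, which RNA counts do not measure.

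Each library held between 20778077 and 20888041 estimated counts in total. For the deleted gene *Hint1*, WT libraries held 2272 to 2364 counts and Hint1-/- libraries 713 to 778, so 32.1% of the WT level remained. Where in the gene these reads lie was not tested. Smooth muscle markers were present at a summed 1410 to 1540 CPM (counts scaled to library size) in WT libraries against 1160 to 1240 in Hint1-/- libraries, and 4 of 6 were lower and 1 was higher at an adjusted p under 0.05. The cultures also held RNA of 5 macrophage markers at a summed 1760 to 2040 CPM in WT libraries against 1460 to 1560 in Hint1-/- libraries. Of these 5, *Ptprc*, *Csf1r*, *Adgre1*, and *Lyz2* were lower by the same test. Of 4 fibroblast markers, 3 were higher and 1 was lower, with summed levels of 1460 to 1560 CPM and 2400 to 2510 CPM. Of 5 Schwann and neural crest markers, 4 were lower (38.4 to 43.6 CPM against 8.45 to 10.7 CPM), and the 3 tested of 5 cardiac markers were higher (1.15 to 2.12 CPM against 4.57 to 8.15 CPM). Endothelial markers lay at 4.81 to 6.96 CPM in WT libraries against 4.71 to 6.38 in Hint1-/- libraries, and none of the markers in these 6 lists was at 0 in every sample. In such bulk samples, fewer cells of a type and less RNA per cell cannot be told apart.

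The 10 genes differed little between the genotypes. The study's thresholds ask for a change of more than 1.5-fold at an adjusted p below 0.05. None of the 10 met them by edgeR's quasi-likelihood test, by DESeq2, or by limma-voom. By edgeR, 2.83% of the 13535 genes tested met them, 1.34% on the higher side and 1.49% on the lower. By an unadjusted p under 0.05 alone, 6 of the 10 passed, against 32.8% of all genes tested, and none of the 6 reached the fold limit. All 10 passed the filter on low counts, at 1219 to 24777 counts per sample. Without the limit on fold change, 5 of the 10 had an adjusted p under 0.05, against 21.5% of all genes tested. The genes tested include many with far fewer counts, where small changes are harder to call, so these shares are not matched for depth. The 10 were also chosen with earlier results of these data known, so their share is a description. *Il6st*, *Jak2*, and *Socs3* were higher in Hint1-/- samples, which 11.2% of all genes were, and *Ptk2* and *Ptk2b* were lower, which 10.2% were. The 95% interval of every one of the 10 fold changes stayed within a 1.32-fold change. The genotypes did not overlap for 5 of the 10 genes, against 23.0% of all genes tested. *Il6st*, *Jak2*, and *Stat3* were without overlap on the higher side (11.9% of all genes) and *Ptk2b* and *Pxn* on the lower side (11.0%). The median log2 fold change of the 10 genes was 0.042, beside 0.00031 for all genes tested.

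**Figure D1:**
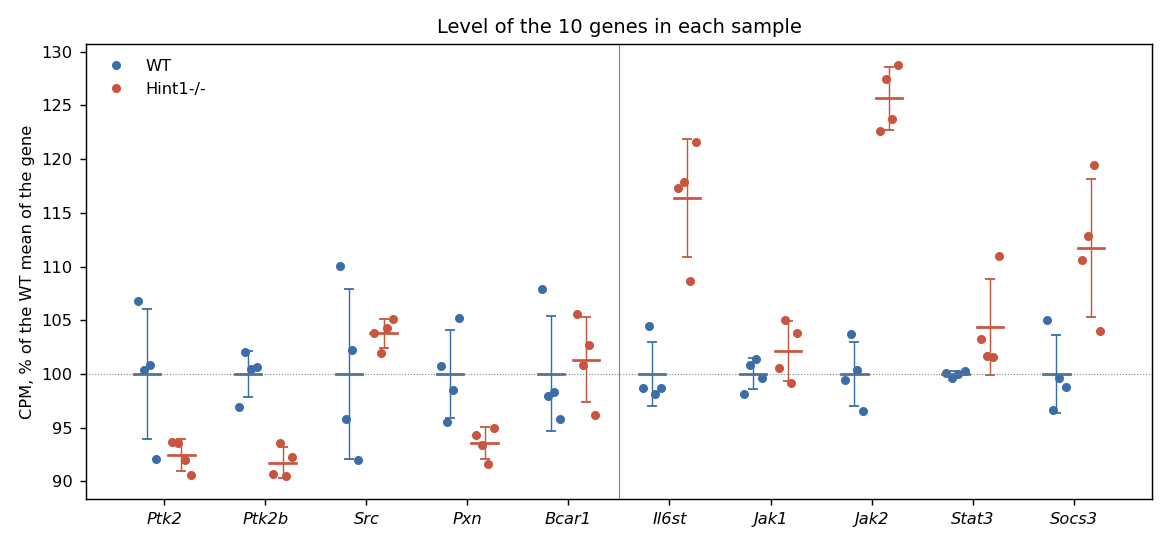
Level of each gene in each sample as a percentage of that gene's mean CPM in WT (vertical axis), with genes of the focal adhesion side to the left of the vertical line and genes of the gp130, JAK, and STAT3 side to the right. Points are samples, horizontal lines are means, and bars are SDs (n = 4 per genotype). The genotypes did not overlap for *Ptk2b*, *Pxn*, *Il6st*, *Jak2*, and *Stat3*, and the mean of *Jak2* in Hint1-/- samples was 126% of that in WT.

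**Figure D2:**
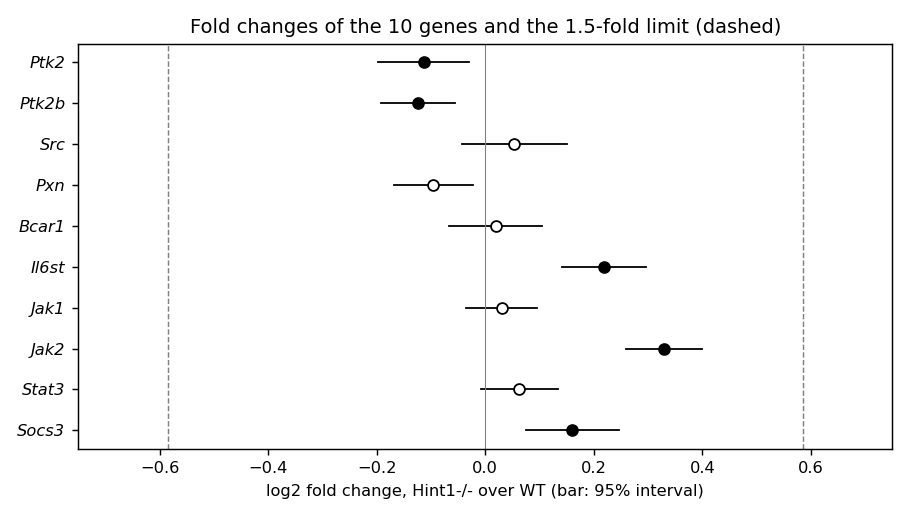
Log2 fold change of Hint1-/- over WT samples for the 10 genes, with 95% intervals from edgeR's quasi-likelihood fit. Filled points have an adjusted p under 0.05, open points do not, and dashed lines mark the 1.5-fold limit, which no interval reached.

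On the focal adhesion side, both FAK family kinases were slightly lower on average in Hint1-/- MASMCs. *Ptk2* (ENSMUSG00000022607.17, chromosome 15 of mm10 from 73205102 to 73423280, reverse strand) had 2774, 2621, 2625, and 2392 counts in WT replicates 1 to 4 and 2418, 2410, 2381, and 2342 in Hint1-/- replicates 1 to 4. WT replicate 4 lay within the range of the Hint1-/- samples, and the other 3 WT samples lay above it. A two-sided exact permutation test gave p = 0.0857 for *Ptk2*. Mean CPM were 125 ± 7.58 and 115 ± 1.82 (SDs over 4 samples each). edgeR's fit put the log2 fold change at −0.11 ± 0.040 (SE) with an adjusted p of 0.0497. This call was the least stable of the 5. In edgeR's test, its adjusted p became 0.181, 0.0714, and 0.113 without WT replicates 1, 2, and 3. It became 0.0765, 0.0811, 0.0950, and 0.121 without Hint1-/- replicates 1, 2, 3, and 4. Without WT replicate 4 it was 0.00542, at a log2 fold change of −0.15.

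*Ptk2b* encodes PYK2, the FAK paralog that also answers calcium and is abundant in blood cells. It lies on chromosome 14 of mm10 from 66153257 to 66281052 on the reverse strand. Counts were 2254, 2389, 2342, and 2341 in WT replicates and 2097, 2159, 2099, and 2136 in Hint1-/- replicates, and the 2 genotypes did not overlap. Mean CPM were 112 ± 2.43 and 102 ± 1.61 (SDs over 4 samples each), and edgeR's fit put the log2 fold change at −0.12 ± 0.032 (SE) with an adjusted p of 0.00928. The 4 macrophage markers given above were lower in the same samples, and their part in this difference was not tested.

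*Src* encodes the kinase that binds phosphorylated FAK and lies on chromosome 2 from 157418444 to 157471862 on the forward strand. It had 1457, 1276, 1357, and 1219 counts in WT replicates and 1366, 1339, 1377, and 1385 in Hint1-/- replicates. The WT samples spread on both sides of the Hint1-/- samples. The difference was within this spread, with a log2 fold change of 0.05 (SE 0.046, 95% interval −0.044 to 0.15, adjusted p = 0.461 from edgeR's test). Without WT replicate 1 the value was 0.10, and without WT replicate 4 it was 0.02.

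Of the adaptors, *Pxn* encodes paxillin, a scaffold of the focal adhesion, and lies on chromosome 5 from 115506676 to 115555987 on the forward strand. Counts were 3576, 3412, 3505, and 3738 in WT replicates and 3328, 3290, 3243, and 3358 in Hint1-/- replicates. The genotypes did not overlap, but the adjusted p of 0.0567 in edgeR's test missed the threshold (0.0199 without WT replicate 2). Mean CPM were 170 ± 6.97 and 159 ± 2.51 (SDs over 4 samples each), which is −0.10 ± 0.035 (SE) on the log2 scale. *Bcar1* encodes p130Cas, a substrate of FAK and SRC that recruits CRK, and lies on chromosome 8 from 111710474 to 111743809 on the reverse strand. It had 2276, 2081, 2082, and 2025 counts in WT replicates and 2217, 2112, 2164, and 2021 in Hint1-/- replicates, which overlapped over most of their range. Its log2 fold change was 0.02 (SE 0.041, 95% interval −0.066 to 0.11, adjusted p = 0.792 from edgeR's test), the smallest of the 10 genes.

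On the cytokine receptor side, *Il6st* and *Jak2* were higher in every Hint1-/- sample, and *Jak1* was not. *Il6st* encodes gp130, the signalling chain shared by the receptors for IL-6, LIF, IL-11, and oncostatin M. It lies on chromosome 13 from 112464070 to 112510086 on the forward strand. It had 20183, 21505, 20138, and 20198 counts in WT replicates and 23869, 23921, 22178, and 24777 in Hint1-/- replicates. WT replicate 2 stood above the other 3 WT samples and Hint1-/- replicate 3 below the other 3 Hint1-/- samples, with a gap left between the genotypes. Mean CPM were 981 ± 29.4 and 1142 ± 53.7 (SDs over 4 samples each), a rise of 0.22 ± 0.037 (SE) on the log2 scale with an adjusted p of 0.000248 by edgeR.

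*Jak2* encodes a kinase that sits on gp130 and on receptors for growth hormone, erythropoietin, and interferon-γ, and it changed most of the 10 genes. It lies on chromosome 19 from 29251828 to 29313080 on the forward strand. Counts were 3180, 3338, 3221, and 3092 in WT replicates and 3899, 4045, 3950, and 4102 in Hint1-/- replicates. The 2 ranges were narrow and stood well apart. Mean CPM were 153 ± 4.50 and 193 ± 4.50 (SDs over 4 samples each), so *Jak2* stood at 126% of WT. By edgeR this was 0.33 ± 0.033 (SE) on the log2 scale, with a 95% interval of 0.26 to 0.40 and an adjusted p of 6.96e-07. This interval ends below the study's fold limit, which is 0.585 on the log2 scale. The summed fibroblast markers were higher in the same samples as *Il6st* and *Jak2*, though 1 of the 4, *Dpt*, was lower. Their part in these differences was not tested.

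*Jak1* encodes the other main kinase of gp130 and of the interferon receptors. It lies on chromosome 4 from 101152367 to 101265282 on the reverse strand. It had 6203, 6411, 6430, and 6303 counts in WT replicates and 6317, 6585, 6247, and 6534 in Hint1-/- replicates, and the samples of the genotypes were interleaved. The log2 fold change was 0.03 (SE 0.031, 95% interval −0.036 to 0.096, adjusted p = 0.552 from edgeR's test).

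*Stat3* RNA was close to equal in the genotypes. It lies on chromosome 11 from 100885098 to 100939540 on the reverse strand, and the counts were 5544, 5554, 5558, and 5559 in WT replicates and 5690, 5591, 5613, and 6123 in Hint1-/- replicates. The WT samples were nearly identical, with a coefficient of variation of 0.268%, while Hint1-/- replicate 4 stood above the other 3 of its genotype. So narrow a WT spread is below what the counting of reads alone usually leaves at such counts. It is no measure of how steady the gene is, and the lack of overlap between the genotypes rests in part on it. Although each Hint1-/- sample lay above each WT sample, the log2 fold change of 0.06 (SE 0.034, 95% interval −0.0086 to 0.13) did not pass edgeR's test (adjusted p = 0.213), and it was 0.03 without Hint1-/- replicate 4.

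*Socs3*, the feedback inhibitor that STAT3 induces, was modestly higher in Hint1-/- MASMCs. It lies on chromosome 11 from 117966079 to 117970047 on the reverse strand and had 2852, 2639, 2712, and 2684 counts in WT replicates and 2986, 3039, 3236, and 2812 in Hint1-/- replicates. Hint1-/- replicate 4 lay below WT replicate 1, so the ranges crossed, and a two-sided exact permutation test gave p = 0.0571. Mean CPM were 130 ± 4.69 and 145 ± 8.31 (SDs over 4 samples each), and edgeR gave a rise of 0.16 ± 0.041 (SE) on the log2 scale with an adjusted p of 0.00808.

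STAT dimers bind the palindrome TTCNNNGAA, which reads the same on both strands. RefSeq windows on GRCm38.p6, from 250 bases before to 50 after a gene's start, were at hand for 7 of the 10 genes, and that of *Socs3* alone among them held these letters. The match, in capitals, begins 154 bases before the start that RefSeq gives *Socs3*, and it is shown with its flanks because *Socs3* is the STAT3 feedback gene among the 10 (chr11:117969502-117969530, reverse strand).
*Socs3* window: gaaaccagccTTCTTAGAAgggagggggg
Of 32851 such windows over all genes, 8.30% held a match. The windows of *Src*, *Bcar1*, *Il6st*, *Jak1*, *Jak2*, and *Stat3* held none. GENCODE sets the start of *Socs3* further upstream than RefSeq does, so the match lies inside the gene span given above, though in no GENCODE exon of *Socs3*. Exons of other genes were not checked at this place. A match of letters is a description of the sequence and no measure of binding.

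Ratios of genes within a sample do not depend on the scaling between libraries, and 5 pairs were compared. The ratio of *Jak2* to *Jak1* CPM was 0.491 to 0.521 in WT samples, against 0.614 to 0.632 in Hint1-/- samples. It was 23.1% higher in Hint1-/- samples, with mean log2 ratios of −0.982 ± 0.0377 in WT and −0.683 ± 0.0198 in Hint1-/- samples (SD, n = 4 per genotype). The ratio of *Src* to *Ptk2* was 0.487 to 0.526 in WT and 0.556 to 0.592 in Hint1-/- libraries, 12.3% higher in the latter. Neither of these ratios overlapped between the genotypes. A two-sided exact permutation test gave p = 0.0286 for both, the lowest value possible with 70 assignments. Benjamini-Hochberg adjustment over the 5 pairs took it to 0.0714, which missed the threshold of 0.05. With no other pair at that lowest value, the adjusted p could not fall under 0.05, whatever the size of these differences. The other 3 ratios overlapped. *Socs3* to *Stat3* lay at 0.475 to 0.515 and 0.459 to 0.577, a log2 difference of 0.0977 (exact permutation p = 0.257, adjusted 0.321). This difference was 0.161 without Hint1-/- replicate 4 and 0.052 without Hint1-/- replicate 3. *Bcar1* to *Pxn* lay at 0.542 to 0.637 and 0.602 to 0.667, a log2 difference of 0.115 (exact permutation p = 0.114, adjusted 0.190), and it was 0.0701 without WT replicate 4. *Ptk2b* to *Ptk2*, the paralogous kinases, lay at 0.813 to 0.979 and 0.867 to 0.912, a log2 difference of −0.0125 (exact permutation p = 0.8, adjusted 0.8).

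**Figure D3:**
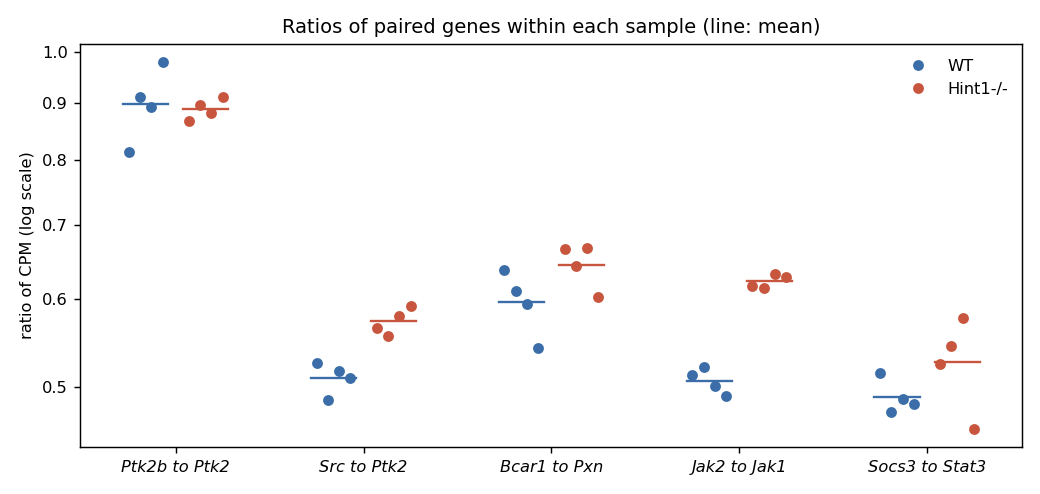
Ratio of the CPM of 5 pairs of genes within each sample (vertical axis, log scale), with WT and Hint1-/- samples as points and their means as lines (n = 4 per genotype). The ratio of *Jak2* to *Jak1* rose from at most 0.521 in WT to at least 0.614 in Hint1-/- samples, and that of *Src* to *Ptk2* from at most 0.526 to at least 0.556.

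Per kilobase of annotated exon, the receptor and STAT3 genes were more abundant than the focal adhesion kinases. *Il6st* led at 88.4 ± 2.65 CPM per kilobase in WT (SD, n = 4), at percentile 96.4 of the 13145 tested genes with a known length. *Socs3* followed at 45.0 ± 1.62, *Jak1* at 41.9 ± 0.603, *Jak2* at 30.5 ± 0.895, and *Stat3* at 27.9 ± 0.0748 CPM per kilobase. *Bcar1* at 22.3 ± 1.19 and *Pxn* at 20.8 ± 0.850 CPM per kilobase overlapped in their WT samples, as did *Ptk2b* at 15.1 ± 0.328 and *Src* at 14.5 ± 1.15, and all other neighbours in this order were apart. *Ptk2* was lowest at 10.6 ± 0.642 CPM per kilobase, at percentile 65.1. In Hint1-/- samples no neighbours overlapped, and the order was the same except that *Src* (15.1 ± 0.194) stood above *Ptk2b* (13.8 ± 0.217). The order depends on which exons count: with the longest transcript as the length, *Jak1* stood above *Socs3*, *Pxn* stood above *Stat3*, *Jak2* fell from rank 4 to rank 7, below *Pxn*, *Stat3*, and *Bcar1*, and *Ptk2* rose to 26.6 CPM per kilobase, above *Src* at 16.3.

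**Figure D4:**
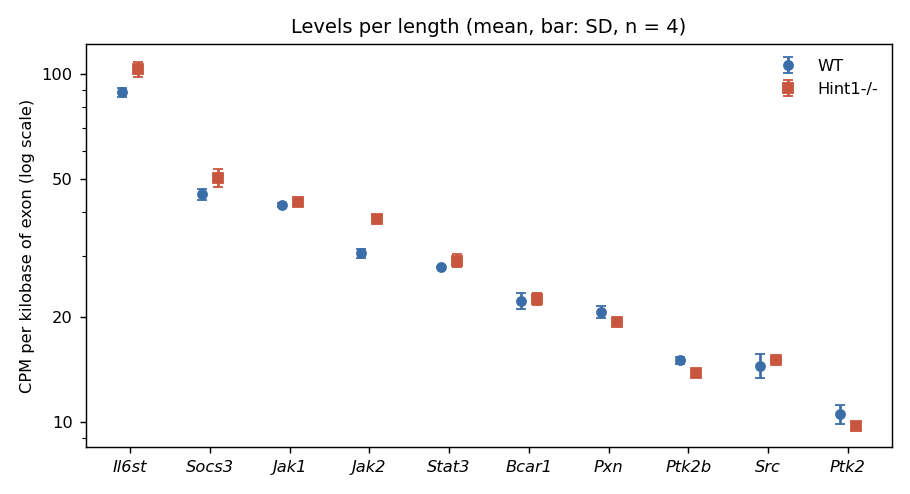
Mean CPM per kilobase of exon (vertical axis, log scale) for the 10 genes in WT and Hint1-/- samples, with SDs as bars (n = 4 per genotype). Levels run from 88.4 for *Il6st* to 10.6 for *Ptk2* in WT, a wider span than any difference between the genotypes.

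The 10 genes lie on 9 chromosomes, with *Stat3* and *Socs3* both on chromosome 11, which also carries *Hint1*. Counts of *Jak1*, *Jak2*, and *Il6st* were not whole numbers in 8, 6, and 1 of the 8 samples, as arises when a read is divided between genes, and those of the other 7 were whole. Exons of *Stat3* overlap *Stat5a* on the opposite strand over 72 bases, and exons of *Jak1* overlap *Raver2*, also on the opposite strand, over 4 bases. The sources used here do not state whether counting used the strand, so reads in these stretches cannot be assigned.

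The wider pathways were described with 6 lists of 113 genes, of which 111 passed the filter on low counts. Of these, 23 were higher and 15 were lower at an adjusted p under 0.05 (34.2%, beside 21.5% of all genes tested), and 4 also passed the fold limit (3.60%, beside 2.83%). The 4 were *Socs2*, *Lcn2*, *Saa3*, and *Steap4*, and all were higher in Hint1-/- samples. The list of 22 STAT3 targets gave 3 of these 4, and 15 of the 38 genes with an adjusted p under 0.05. That list was put together with earlier results of these data known. In the remaining lists, 15.0% to 33.3% of the tested genes had an adjusted p under 0.05.

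Among 21 focal adhesion scaffold genes, 3 were higher and 4 were lower, with a median log2 fold change of −0.051. None passed the fold limit in edgeR, DESeq2, or limma-voom, and 9 had an unadjusted p under 0.05 (42.9%, beside 32.8% of all genes tested). *Parvb*, which encodes β-parvin of the integrin-linked kinase complex, fell from 51.4 ± 2.65 CPM to 41.1 ± 1.92 CPM (log2 difference −0.32; adjusted p 3.91e-05). *Lpxn*, which encodes leupaxin, a paxillin relative of blood cells, fell from 42.5 ± 1.78 CPM to 34.7 ± 1.20 CPM (log2 difference −0.29; adjusted p 7.05e-05). The genotypes overlapped for neither gene. Among 26 tested genes of FAK and SRC signalling, 3 were higher and 3 were lower, with a median log2 fold change of 0.030, and none passed the fold limit in the 3 tools, while 8 had an unadjusted p under 0.05 (30.8%, beside the same 32.8%). *Lyn*, which encodes a SRC family kinase of blood cells, fell from 71.0 ± 4.29 CPM to 59.6 ± 3.03 CPM (log2 difference −0.25; adjusted p 0.000541). The 4 macrophage markers that passed the test were lower in the same samples as *Lpxn* and *Lyn*, and their part in these differences was not tested. All adjusted p values here are from edgeR's quasi-likelihood test, and SDs are over n = 4 per genotype.

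Among 15 gp130 cytokine and receptor genes, 3 were higher and 2 were lower, with a median log2 fold change of 0.011. None passed the fold limit in edgeR, DESeq2, or limma-voom, and 8 had an unadjusted p under 0.05 (53.3%, beside 32.8% of all genes tested). The cytokine gene *Il6* rose from 77.0 ± 7.81 CPM to 101 ± 4.49 CPM (log2 difference 0.39; adjusted p 3.52e-05). It did not overlap between the genotypes. Of 7 tested JAK and STAT genes beside the 10, 1 was higher and 1 was lower, with a median log2 fold change of −0.01. *Stat5a* was higher at 32.9 ± 0.712 CPM against 27.4 ± 0.827 CPM in WT (log2 difference 0.26; adjusted p 0.000258). None of the 7 passed the fold limit in edgeR, DESeq2, or limma-voom, while 2 had an unadjusted p under 0.05 (28.6%, beside 32.8% of all genes tested).

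Among 20 inhibitor and phosphatase genes, 2 were higher and 1 was lower, with a median log2 fold change of −0.0068. *Socs2*, which restrains growth hormone signalling, was counted 165 to 187 times in WT and 282 to 314 times in Hint1-/- libraries. It rose from 8.36 ± 0.413 CPM to 14.4 ± 0.646 CPM (SDs over 4 samples each), by 0.79 ± 0.068 (SE) on the log2 scale with an adjusted p of 9.74e-08 by edgeR. *Rb1cc1*, whose product FIP200 binds FAK and is needed for autophagy, rose from 45.4 ± 2.15 CPM to 51.6 ± 2.44 CPM (log2 difference 0.19; adjusted p 0.00491). The gene that fell was *Ptprj*, which encodes a receptor tyrosine phosphatase, from 40.9 ± 0.883 CPM to 35.5 ± 3.21 CPM (log2 difference −0.20; adjusted p 0.0101), and it was named after its values were seen. The remaining 17 did not pass the test.

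Of the 22 genes listed as STAT3 targets, 11 were higher and 4 were lower, which is 68.2% beside 21.5% of all genes tested, and their median log2 fold change was 0.11 beside 0.00031. This list was put together with earlier results of these data known, so the share is a description and no independent evidence of direction. *Lcn2*, which encodes an iron-trapping protein of the acute phase, rose from 2180 to 2381 counts in WT libraries to 8168 to 10029 in Hint1-/- libraries (log2 fold change 1.99, SE 0.052, adjusted p = 2.08e-15 from edgeR's test). *Steap4*, which encodes a metalloreductase, rose from 185 to 198 counts to 407 to 466 (log2 fold change 1.23, SE 0.065, adjusted p = 8.91e-11). *Saa3*, an acute-phase protein gene, rose from 30408 to 33771 counts to 55983 to 59970 (log2 fold change 0.87, SE 0.038, adjusted p = 4.75e-12). The summed fibroblast markers were higher in the same samples, though 1 of the 4, *Dpt*, was lower. Their part in these rises was not tested. *Lcn2*, *Steap4*, and *Saa3* are also known targets of NF-κB and C/EBP factors. Counts do not measure the activity of these factors or of STAT3.

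**Figure D5:**
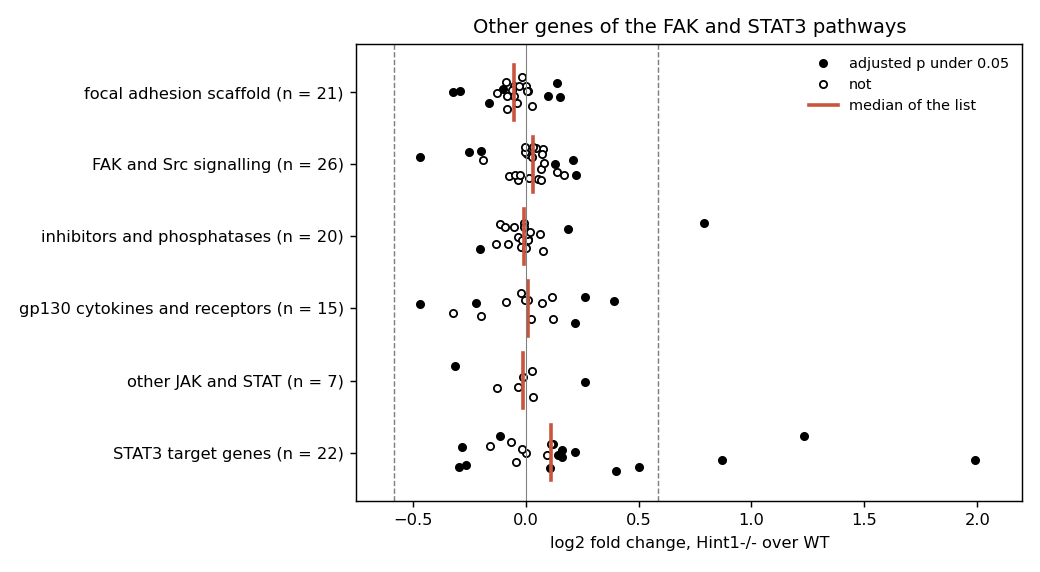
Log2 fold change of Hint1-/- over WT samples (horizontal axis) for 111 tested genes in 6 lists, with the number tested beside each list. Filled points have an adjusted p under 0.05 in edgeR's test, red lines are list medians, and dashed lines mark the 1.5-fold limit, which *Socs2*, *Lcn2*, *Steap4*, and *Saa3* passed.

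*Itga6*, the integrin gene that the study places above FAK, had a log2 fold change of −0.65 in the same fit (−0.57, under the fold limit, without WT replicate 2), beside −0.11 for *Ptk2* and 0.06 for *Stat3*. The genes whose level over the 8 samples ran closest to a kinase or factor were found by the root mean squared difference of centred log2 CPM, among the 11848 whose mean count was 50 or more. For *Ptk2* they were *Cdkn1a*, *Sparc*, and *Donson*, at 0.0209, 0.0253, and 0.0277, where the median gene was at 0.115. For *Stat3* they were *Nbea*, *Ddr2*, and *Zmynd8*, at 0.0155, 0.0168, and 0.0168, where the median gene was at 0.0950. These genes were picked for the smallest distances, so their place below the median was fixed by that choice. All of these genes share the same 8 libraries.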

How the data were processed

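RNA from the 8 MASMC samples was sequenced with 50-base reads. The study's methods map reads to mm10 with HISAT2, while the submitters' processing notes name Bowtie2 and RSEM 1.3.1. The authors deposited estimated counts per gene symbol, not normalized. The annotation is not given in the sources used here. Counts were rounded, filtered with filterByExpr, normalized by TMM (factors 0.993 to 1.01), and tested in edgeR 4.0.16 (glmQLFit, glmQLFTest, genotype as the only term) in R 4.3.3, over 13535 genes with Benjamini-Hochberg adjustment. SEs are the log2 fold change divided by the square root of F. DESeq2 1.42.0 and limma 3.58.1 (voom) served as alternatives. Log2 CPM used a prior count of 2. Marker sums are CPM of total counts. The pipeline was tested on simulated data.

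Positions and exon lengths came from GENCODE M21 (mm10) by symbol. No protein sequences were used.

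Genes named were the 10 members, every list gene past both thresholds, the 2 genes per list with the smallest adjusted p under 0.05 and a mean of at least 50 counts, the 3 genes nearest *Ptk2* and *Stat3*, *Hint1*, and *Itga6*. Some genes under this rule are not reported here, though the counts over the lists include them. The members and lists were chosen with earlier results of these data known. Chi-square per gene was 2.10 to 5.47 within genotypes and 11.8 to 17.2 between them, so no library was a duplicate. Intervals cover the spread between samples only. Alternatives were other scalings and filters on low counts, counts not rounded, the replicate number as a block, a gene-length correction, and each sample left out.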

Additional observations from a re-analysis of the deposited data

Results flagged for a closer look

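The spread within each genotype was examined in log2 CPM of the named genes, in the 5 ratios, and in the library totals, over 56 sets of 4 libraries. In 1 of them, the extreme library stood off from its nearest neighbour by more than Dixon's limit, as a share of the distance between highest and lowest. By chance, 1 set in 20 would do so, or 2.8 here. It was *Il6st* in WT, where replicate 2 reached 21505 counts while the remaining libraries held 20138 to 20198, and its distance was 0.914 of the whole. *Il6st* kept an adjusted p under 0.05 in edgeR's test with any 1 library left out.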

How the results depend on the processing

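None of the 10 genes passed the fold limit under the 18 alternatives, and 4 pathway genes did under each. Between 4 and 6 of the 10 had an adjusted p under 0.05 (4 to 5 with 1 sample left out), and between 31 and 42 pathway genes did (31 to 39 with 1 sample left out), beside 5 and 38 as reported. *Jak2*, *Il6st*, *Socs3*, and *Ptk2b* kept their calls under all 18, with adjusted p up to 1.02e-05, 0.00202, 0.0342, and 0.0313. *Ptk2* lost its call under 10, at log2 fold changes of −0.12 to −0.08 and adjusted p from 0.0502 to 0.181. Among these were DESeq2 (0.0543), limma-voom (0.0547), and counts not rounded (0.0502). It kept the call under 8, with the lowest adjusted p, 0.00542, without WT replicate 4. *Pxn* gained one under 5, with adjusted p from 0.0199 to 0.0446, and had 0.053 to 0.177 under the others. *Bcar1* changed sign without WT replicate 4 (−0.00027) and without Hint1-/- replicate 1 (−0.00061), far inside its SE, and reached 0.0577 without WT replicate 1. The cause of these shifts was not tested.

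Same-numbered samples did not deviate together (correlations of −0.0450 to 0.0814), so the numbers are not taken to pair them. With the number as a replicate block, 6 of the 10 and 41 pathway genes had an adjusted p under 0.05, and the adjusted p of the *Jak2* to *Jak1* and *Src* to *Ptk2* ratios was 0.208 by exact sign flips, a test that could not pass since 4 pairs allow no unadjusted p below 0.125. The log2 ratio differences ranged from 0.284 to 0.313 for *Jak2* to *Jak1* and from 0.146 to 0.183 for *Src* to *Ptk2* with 1 sample left out. For *Ptk2b* to *Ptk2* the difference turned from −0.0125 to 0.0295 without WT replicate 4 (−0.0599 without WT replicate 1). *Itga6* lost the fold limit without WT replicate 2. Trends over gene length were removed without GC content, since no genome was used.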
